A study of Mus musculus with 8 samples.

Results

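Coils around both common carotid arteries narrow the vessels and lower blood flow to the forebrain of the mouse, an operation called bilateral common carotid artery stenosis (BCAS). Sham surgery exposes the same arteries without coils. The comparison described here sets all 6 BCAS libraries of the corpus callosum against both sham libraries, whatever genotype the libraries are labelled with, and asks which genes lie on the same side of sham in all 6. These 8 libraries are all the libraries of the series. Of the 25239 gene symbols in the table, 15152 reached a mean of 1 CPM over the 8 libraries and were tested. CPM stands for read counts scaled to a common library size, as normalized by the authors. The mice were young adult males of the C57BL/6 strain by the labels (C57BL/6J in the study's methods). By their labels, WT animals carry no deletion, and TRPA1-KO animals (Trpa1 -/-) lack the ion channel TRPA1 in every cell type. For each label, 1 library came from sham on day 14 and 1 library each from BCAS on days 7, 10, and 14, so days 7 and 10 have no sham library of their own day. Operation and day cannot be told apart for those 4 libraries. Per the study's methods, a sample is an extract of 1 mouse. The spread between BCAS libraries thus holds differences between animals, days, and labels together, and the p-values measure only that spread and the spread between both sham libraries.

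The libraries held between 7896071 and 12952093 reads on genes, and 3 reads corresponded to between 0.235 and 0.378 CPM. Such floors cover counting error only. The BCAS library labelled WT of day 7 stood farthest from the rest, with a median correlation of 0.973 with the other libraries over 10744 genes whose mean reached 10 CPM, and the other 7 libraries lay between 0.984 and 0.990. *Trpa1* (chr1:14872644-14918862 of GRCm38) was below the limit for testing. It had 1 read in sham labelled WT and 0 reads in each BCAS library labelled WT, but 10 reads in sham labelled TRPA1-KO and 11, 3, and 7 reads in BCAS labelled TRPA1-KO on days 7, 10, and 14. The targeted gene thus had more reads with the label TRPA1-KO than with the label WT. Counts are per gene, so the exons that these few reads cover are not known here. Whether the labels are exchanged was not tested, and libraries are named by label throughout. The comparison of BCAS with sham pools both labels and draws no direction between them.

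The corpus callosum is the white matter tract between the cerebral hemispheres. Its axons are wrapped in myelin, a stack of membranes made by oligodendrocytes and held together by proteins such as myelin basic protein. Oligodendrocytes arise from precursor cells that divide throughout life, and white matter is known to be sensitive to low blood flow. In bulk tissue, fewer cells of a type and less RNA per cell cannot be told apart.

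Genes on the same side of sham were counted by overlap and by a test. In all 6 BCAS libraries, 385 genes were higher than in both sham libraries (2.54% of the genes tested) and 569 were lower (3.76%), which makes 954 genes without overlap between the groups (6.3%). By limma's moderated test on log2(CPM + 1), 566 genes had a p under 0.05 (3.74%), of which 204 were higher (1.35%) and 362 lower (2.39%). Both conditions held for 162 higher genes (1.07%) and 237 lower genes (1.56%), and these 399 genes are called shared below. If libraries could be swapped freely, 28 arrangements of 6 against 2 are equally likely, and a gene has no overlap with a probability of 0.0714. The 6.3% without overlap was not above this, and the 3.74% with a p under 0.05 was not above that threshold. The counts alone thus do not set the shared genes apart from chance. After Benjamini-Hochberg adjustment over all genes tested, limma left 0 genes under 0.05, and its smallest adjusted p was 0.406. On the reads recovered from the values, edgeR's quasi-likelihood test gave 577 genes with a p under 0.05 and 0 after adjustment. DESeq2 gave 494 and 6 after adjustment. The 6 were *Anxa11*, *Gm2260*, *Gm2274*, and *Tshz2*, all higher after BCAS, and *Mal* and *Bcas1*, both lower. In simulated data, DESeq2 gave 0.194% of 14952 unchanged genes an adjusted p under 0.05. The share was 0.0736% for edgeR and 0.0669% for limma, so DESeq2 was the least strict of these tools.

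The shared changes were small. The median size over the 399 genes was 0.33 on the log2(CPM + 1) scale, where the added 1 compresses differences of weakly expressed genes, and 91 of them reached 0.5. A size of 1 was reached by 1 higher gene (*Acaa1b*) and 1 lower gene (*Gm10754*). Each of the shared genes named below had an unadjusted limma p under 0.05, and an adjusted p of 0.999 where no other value is given. With 6 libraries against 2, an exact permutation test of a single gene cannot give a two-sided p below 0.0714, which is the p of each named gene without overlap.

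*Anxa11* encodes annexin A11, a protein that binds phospholipids when calcium is present. It had the smallest p of all genes tested. Its level was 29.8 and 33.1 CPM in sham labelled WT and TRPA1-KO, and 42.3 to 50.5 CPM after BCAS (median 45.6). The lowest BCAS library thus lay well above the higher sham library, and the BCAS libraries lay close together, at 45.7 ± 2.82 CPM (SD, n = 6). The log2 difference was 0.53 (standard error 0.085, adjusted p = 0.406; DESeq2 adjusted p = 0.0031). Against the sham library of the same label, it was 0.59 in the libraries labelled WT and 0.46 in those labelled TRPA1-KO.

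*Gm2260* (chr14:26016431-26026559) and *Gm2274* (chr14:26156043-26166186) are annotated as unprocessed pseudogenes on the same chromosome and strand as *Anxa11* (chr14:25842127-25886804). Both symbols carried identical values in every library, 56.7 and 67.5 CPM in sham and 84.3 to 102 CPM after BCAS (median 87.4). The difference was 0.54 (standard error 0.091, limma adjusted p = 0.406). Their transcripts match later coding exons of the *Anxa11* message but do not hold all of its end. The exon printed below ends at base 1600 of 2394 in Anxa11-201. It ends at base 600 of 657 in Gm2260-201 and at base 609 of 609 in Gm2274-201. Of the coding parts of the 14 coding exons of Anxa11-201, 8 were found whole in Gm2260-201 and 7 in Gm2274-201, and 100% and 98.8% of their words of 31 bases occur in *Anxa11* transcripts. The longest such exon is printed because reads within the shared exons cannot be assigned to 1 of the 3 symbols by sequence. It is exon 14 of the 15 exons of Anxa11-201 (chr14:25884142-25884264, plus strand, coding), and the same 123 bases stand at chr14:26023912-26024034 in exon 7 of Gm2260-201 and at chr14:26163526-26163648 in exon 7 of Gm2274-201 (GENCODE M21, GRCm38), with no base that differs.
Anxa11-201, Gm2260-201 and Gm2274-201: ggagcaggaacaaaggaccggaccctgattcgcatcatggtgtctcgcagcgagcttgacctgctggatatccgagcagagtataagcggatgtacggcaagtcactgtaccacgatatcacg

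The 3 symbols may therefore not be separate observations, and how the counting shared such reads is not given in the sources used here. *Anxa11os* also lies opposite *Anxa11*. The library kit named in the study's methods does not mark strand, so reads of a gene and of its antisense partner cannot be told apart.

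*Tshz2*, a zinc finger transcription factor of the teashirt family, was 35.1 and 29.0 CPM in sham and 41.5 to 73.7 CPM after BCAS (median 56.0). Both day 7 libraries were the highest of their label. The difference was 0.80 (standard error 0.17, adjusted p = 0.999; DESeq2 adjusted p = 0.0085). 3 antisense transcripts overlap the gene. *Cd83*, a surface protein of activated antigen-presenting cells, was 6.65 and 5.85 CPM in sham and 8.95 to 10.3 CPM after BCAS (median 9.62), a narrow range at a low level. Its difference was 0.55 (standard error 0.13, adjusted p = 0.999).

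**Figure D1:**
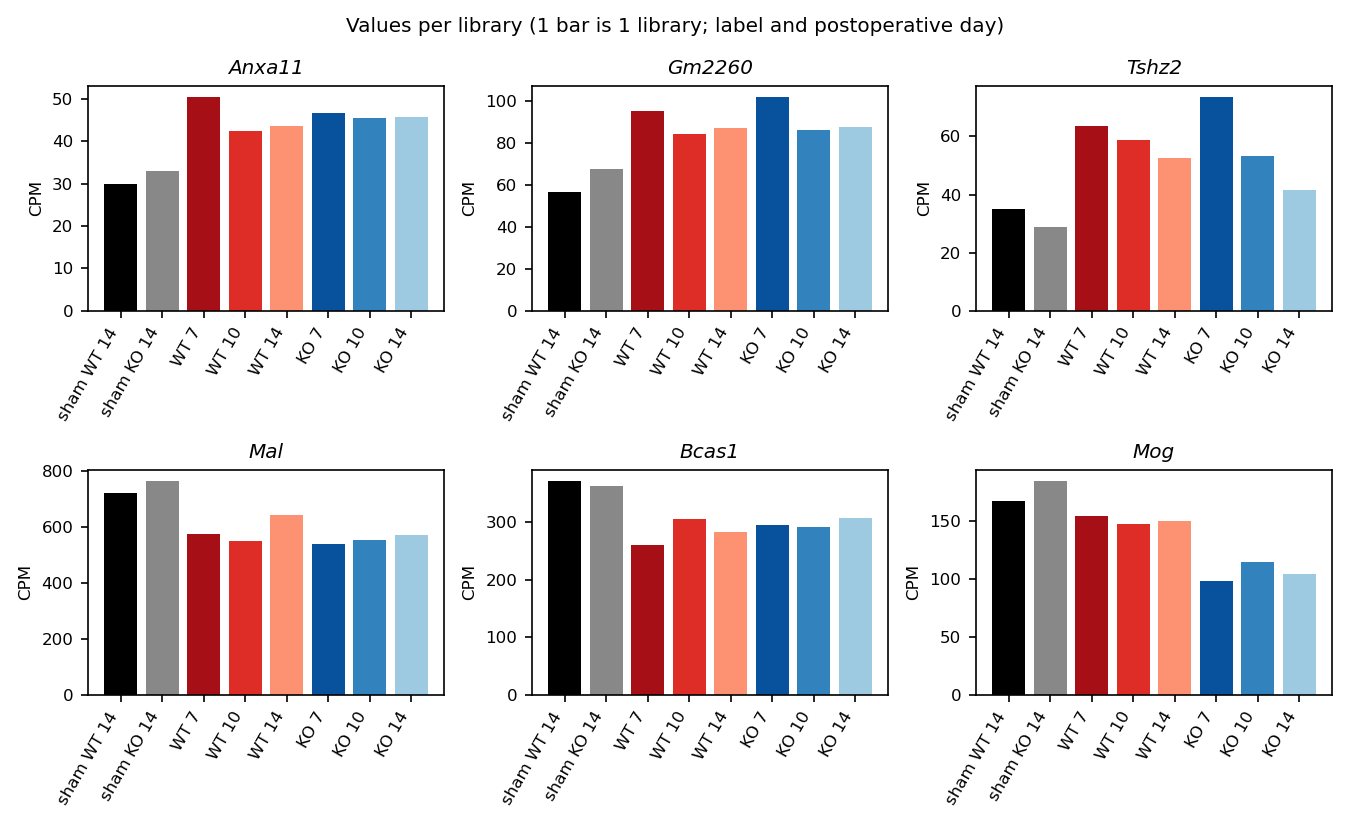
Levels of 6 genes in CPM (vertical axes, each from 0), with 1 bar for each library, named by operation, genotype label and postoperative day (KO stands for TRPA1-KO, and only sham libraries carry the word sham). *Anxa11*, *Gm2260* (whose values are those of *Gm2274* too) and *Tshz2* are higher in all 6 BCAS libraries than in both sham libraries, and *Mal*, *Bcas1* and *Mog* are lower.

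The other higher genes with the smallest p belong to several functions. *Rxfp1*, the receptor of the hormone relaxin, was 26.3 and 22.4 CPM in sham and 31.6 to 48.8 CPM after BCAS (median 36.1; log2 difference 0.63). *Slc39a6*, a zinc importer, was 30.2 and 27.6 CPM in sham and 33.1 to 45.5 CPM after BCAS (median 38.7; log2 difference 0.41). Synaptic and receptor genes were among them. *Unc13b*, which primes synaptic vesicles, was 56.6 and 52.6 CPM in sham and 62.4 to 70.7 CPM after BCAS (median 64.5; log2 difference 0.26). *Sstr1*, a somatostatin receptor, was 26.1 and 22.0 CPM in sham and 27.8 to 31.2 CPM after BCAS (median 30.7; log2 difference 0.32). *Eps8l1*, *Igsf3*, and *Evc2* completed the list, with log2 differences of 0.69, 0.45, and 0.48. The limma adjusted p was 0.999 for each of these 7 genes.

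Beside *Tshz2*, 4 genes had the largest differences among the higher genes that had a limma p under 0.05 and no overlap between groups. *Acaa1b*, a thiolase of fatty acid breakdown in peroxisomes, was 0.548 and 0.959 CPM in sham and 1.43 to 5.92 CPM after BCAS (median 2.56), with a log2 difference of 1.18 (standard error 0.38). *Parp10*, an enzyme that attaches ADP-ribose to proteins, was 1.41 and 2.01 CPM in sham and 2.56 to 5.96 CPM after BCAS (median 3.49; log2 difference 0.79). *Apbb1ip*, an adaptor of integrin activation in blood cells, was 2.74 and 4.60 CPM in sham and 4.72 to 16.8 CPM after BCAS (median 6.03; log2 difference 0.81). For *Parp10* and *Apbb1ip*, the highest library was BCAS day 7 labelled WT. *C4a*, a complement C4 gene, was 5.24 and 6.71 CPM in sham and 7.58 to 19.4 CPM after BCAS (median 10.5; log2 difference 0.77), and its reads are uncertain because it has a near-identical neighbour copy, *C4b*. Without the sham library labelled TRPA1-KO, all 4 of these genes kept a limma p under 0.05. Without the sham library labelled WT, *Acaa1b*, *Parp10*, *Apbb1ip*, and *C4a* did not.

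Among the lower genes, *Mal* had the smallest p. *Mal* encodes the myelin and lymphocyte protein, a membrane protein of compact myelin. It was 721 and 767 CPM in sham and 542 to 642 CPM after BCAS (median 563). The highest BCAS value came from day 14 labelled WT, and the other 5 BCAS libraries lay between 542 and 577 CPM. The log2 difference was -0.38 (standard error 0.080, adjusted p = 0.999; DESeq2 adjusted p = 0.0035). It was -0.29 for the label WT and -0.46 for the label TRPA1-KO, each against its own sham library.

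*Bcas1*, a gene of oligodendrocytes that are beginning to make myelin, was 372 and 363 CPM in sham and 261 to 308 CPM after BCAS (median 294). The sham libraries differed by less than the distance from either to the nearest BCAS library. The log2 difference was -0.34 (standard error 0.074, adjusted p = 0.999; DESeq2 adjusted p = 0.022). *Bcas1os2*, which lies opposite *Bcas1* within its span (chr2:170343973-170427911), was 47.3 and 49.5 CPM in sham and 31.8 to 41.8 CPM after BCAS (median 35.2; log2 difference -0.43). Since the kit does not mark strand, its reads may be those of *Bcas1*.

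*Kcna5*, a voltage-gated potassium channel, was 7.12 and 10.4 CPM in sham and 3.78 to 5.77 CPM after BCAS (median 4.45; log2 difference -0.79, standard error 0.19, adjusted p = 0.999). *Kcnab1*, an accessory subunit of such channels, was 160 and 186 CPM in sham and 106 to 150 CPM after BCAS (median 130; log2 difference -0.42). *Slc25a13*, the aspartate and glutamate carrier of mitochondria, was 7.75 and 9.01 CPM in sham and 3.28 to 5.34 CPM after BCAS (median 4.73; log2 difference -0.78). *Kcna5* and *Slc25a13* kept a limma p under 0.05 without either sham library, and *Kcnab1* did not without the sham library labelled TRPA1-KO. *Htr1b*, a serotonin receptor, was 23.4 and 27.5 CPM in sham and 12.3 to 20.1 CPM after BCAS (median 15.4; log2 difference -0.69). *Stk26*, *Klhl13*, *Cd82*, and *Plekha2* had log2 differences of -0.66, -0.53, -0.34, and -0.28, each with a limma adjusted p of 0.999.

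**Figure D2:**
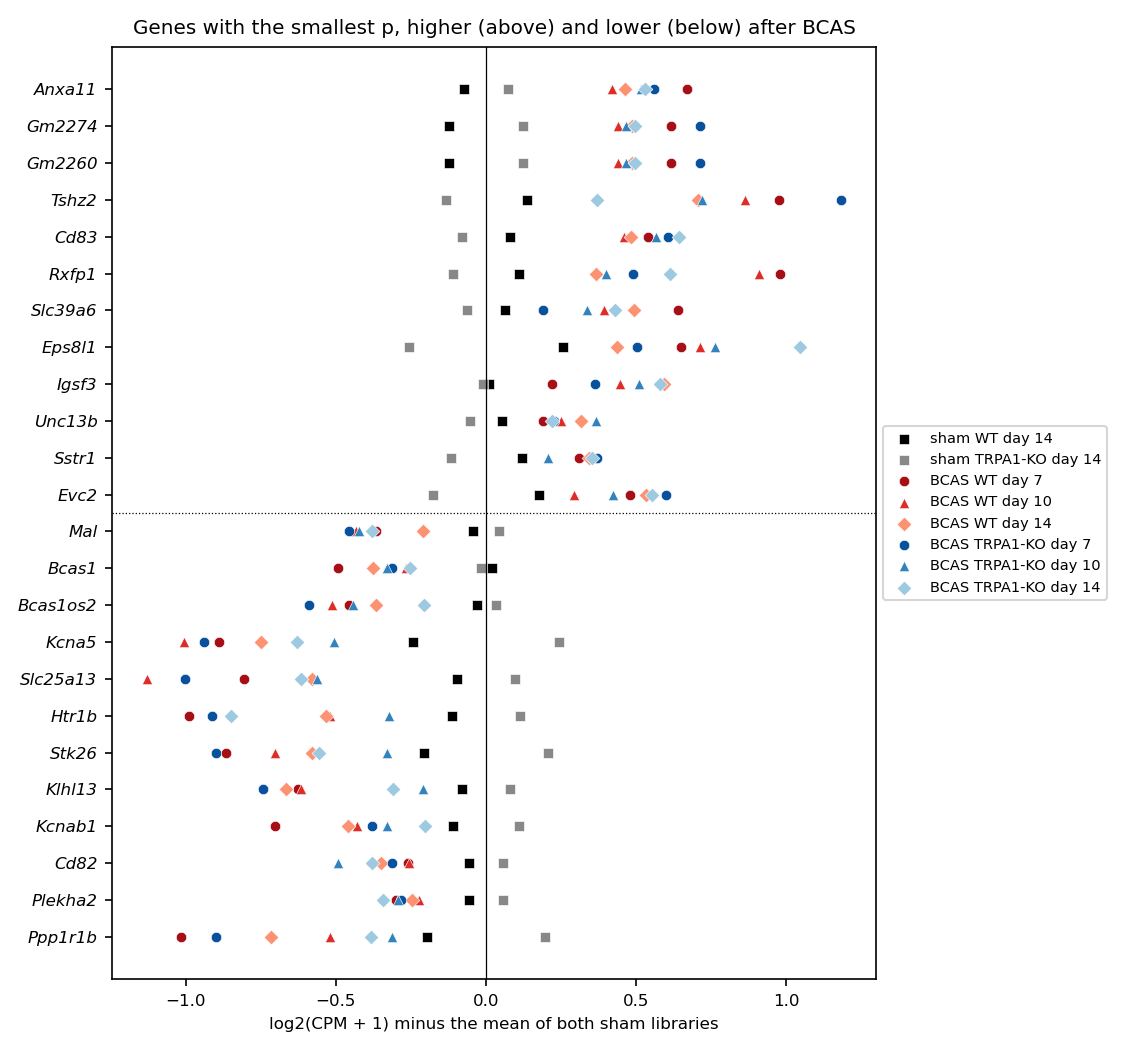
Each row is a gene and each point a library, placed by its log2(CPM + 1) relative to the sham mean (horizontal axis). The 12 genes with the smallest limma p in each direction are shown, higher genes above the dotted line and lower genes below it, and squares mark sham. For every gene all 6 BCAS points lie on one side of both squares, which the choice of genes fixes, and most lie within 1 log2 unit of the sham mean.

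Genes of mature oligodendrocytes were mostly lower after BCAS. Of the 27 genes of the list, 26 had a negative difference (the exception was *Trf*), 14 had a limma p under 0.05 and were lower, and 0 were higher, against 2.39% lower and 1.35% higher over all genes tested. 7 of the 27 were lower in all 6 BCAS libraries than in both sham libraries, against 3.76%. The median difference of the list was -0.25, and that of all genes tested was -0.0038. The list's summed level was 18374 and 20336 CPM in sham and 15235 to 17315 CPM after BCAS, without overlap. By library, the median over the list relative to the sham mean was -0.10 in sham labelled WT and 0.10 in sham labelled TRPA1-KO. It was -0.32, -0.25, and -0.27 on days 7, 10, and 14 after BCAS with the label WT, and -0.29, -0.23, and -0.09 with the label TRPA1-KO. The last of these medians lay at the level of sham labelled WT.

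Structural proteins of myelin were among the lower members. *Mbp*, myelin basic protein, was 6495 and 7246 CPM in sham and 5130 to 6012 CPM after BCAS (median 5505; log2 difference -0.30, standard error 0.13). *Mobp*, a basic protein of myelin, was 2346 and 2711 CPM in sham and 1874 to 2329 CPM after BCAS (median 2035; log2 difference -0.29, standard error 0.11). In *Mobp* the groups were separated only narrowly, with the day 7 library labelled WT just below sham labelled WT. *Ermn*, a cytoskeletal protein of oligodendrocytes, was 155.5 and 184 CPM in sham and 124 to 155.4 CPM after BCAS (median 132; log2 difference -0.33, standard error 0.093), so that its groups almost touched. *Qdpr*, which regenerates the cofactor tetrahydrobiopterin, was 270.0 and 318 CPM in sham and 196 to 267 CPM after BCAS (median 245; log2 difference -0.31, standard error 0.12).

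*Mog*, a glycoprotein of the outer face of the myelin sheath, was the 1 shared lower gene whose difference varied between the labels with an interaction p under 0.05. It was 168 and 185 CPM in sham labelled WT and TRPA1-KO. After BCAS it was 154, 148, and 150 CPM on days 7, 10, and 14 with the label WT, and 98.4, 115, and 104 CPM with the label TRPA1-KO. All 3 libraries labelled TRPA1-KO lay below all 3 labelled WT, and all 6 below sham. The pooled difference was -0.48 (standard error 0.16), made of -0.15 for the label WT and -0.80 for the label TRPA1-KO, and the interaction was not called after adjustment over all genes.

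Further members with a limma p under 0.05 had groups that overlapped and were named after their values were seen. They were *Mag*, *Aspa*, *Tspan2*, *Car2*, *Anln*, *Myrf*, and *Gjc3*, with differences from -0.24 to -0.33. *Myrf*, the transcription factor that switches on myelin genes, was 134 and 168 CPM in sham and 106 to 146 CPM after BCAS (median 120; log2 difference -0.30). In *Myrf* the day 14 library labelled TRPA1-KO lay above sham labelled WT.

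Earlier stages of the lineage were counted in the same way. Of 14 precursor genes, 2 were lower with a limma p under 0.05 (2.39% over all genes), 0 were higher (1.35%), and the median was -0.070. *Pdgfra*, the growth factor receptor that defines precursors, was 68.8 and 64.9 CPM in sham and 52.7 to 62.6 CPM after BCAS (median 57.2; log2 difference -0.21, standard error 0.078). *Vcan*, the proteoglycan versican, was 41.7 and 45.2 CPM in sham and 27.1 to 39.7 CPM after BCAS (median 37.7; log2 difference -0.31, standard error 0.14). Of 10 genes of newly formed oligodendrocytes, *Bcas1* was the 1 with a limma p under 0.05, and the median was -0.063. *Enpp6*, the first marker of that list, overlapped between the groups, at 26.5 and 30.7 CPM in sham and 22.1 to 32.3 CPM after BCAS.

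Genes of striatal projection neurons were lower too. The striatum lies below the corpus callosum, and such neurons are not part of it. Of the 15 genes of this list, 15 had a negative difference, 14 had a limma p under 0.05 (the exception was *Pdyn*, and the share over all genes was 2.39% lower), and 7 were lower in all 6 BCAS libraries than in both sham libraries (3.76% over all genes). The median difference was -0.70. The list's summed level was 2365 CPM in sham labelled WT, 3141 CPM in sham labelled TRPA1-KO, and 1297 to 2208 CPM after BCAS. By library, the list's median was -0.21 and 0.21 in sham labelled WT and TRPA1-KO. It was -1.17, -0.63, and -0.71 on days 7, 10, and 14 after BCAS with the label WT, and -1.07, -0.25, and -0.31 with the label TRPA1-KO. Days 10 and 14 with the label TRPA1-KO were thus close to sham labelled WT, and both day 7 libraries were the lowest.

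*Ppp1r1b*, a phosphatase inhibitor regulated by dopamine and the first marker of the list, was 412 and 542 CPM in sham and 233 to 380 CPM after BCAS (median 308; log2 difference -0.64, standard error 0.17). *Penk*, the precursor of enkephalin, was 214 and 323 CPM in sham and 99.0 to 207 CPM after BCAS (median 147; log2 difference -0.80, standard error 0.23). *Drd1*, the dopamine D1 receptor, was 57.1 and 73.7 CPM in sham and 32.1 to 55.0 CPM after BCAS (median 42.5; log2 difference -0.60, standard error 0.18). In each of these genes, the highest BCAS library was day 10 labelled TRPA1-KO. *Tac1*, *Rgs9*, and *Pde10a* also met both conditions, with differences of -0.65, -0.79, and -0.74. Further members with a limma p under 0.05, named after their values were seen, were *Drd2*, *Adora2a*, *Adcy5*, *Rasd2*, *Gpr6*, *Lrrc10b*, and *Sh3rf2*, with differences from -0.49 to -0.91.

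The medians of both lists shared part of their order across libraries. Sham labelled TRPA1-KO had the highest median in both, and among the BCAS libraries day 7 labelled WT was the lowest, followed by day 7 labelled TRPA1-KO, day 14 labelled WT, and day 10 labelled WT. The other two BCAS libraries changed places, since day 14 labelled TRPA1-KO was the highest in the myelin list (-0.09 against -0.23) and day 10 labelled TRPA1-KO in the striatal list (-0.25 against -0.31). By summed level the myelin order differed, with day 7 labelled TRPA1-KO the lowest (15235 CPM). Without the sham library labelled TRPA1-KO, the number of genes with a limma p under 0.05 was 1 of 27 in the myelin list (*Mal*) and 0 of 15 in the striatal list, with medians of -0.14 and -0.50. Without the sham library labelled WT, it was 12 of 27 and 14 of 15. The part of striatal tissue in the shared lower genes was not tested.

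**Figure D3:**
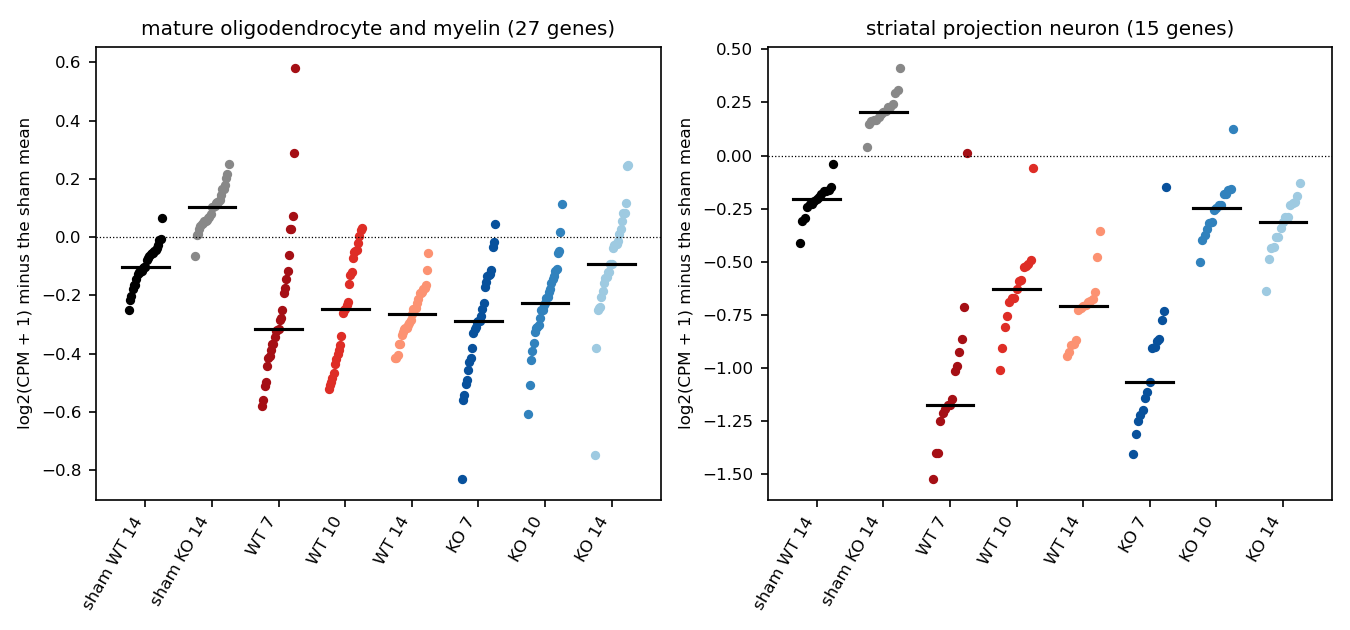
Each point is 1 gene of the mature oligodendrocyte and myelin list (left) or of the striatal projection neuron list (right) in 1 library, placed by its log2(CPM + 1) minus the sham mean (vertical axes, with different ranges), and black bars are medians. Libraries are named by operation, label (KO stands for TRPA1-KO) and day. The medians of the myelin list are -0.09 or lower in all 6 BCAS libraries, and those of the striatal list -0.25 or lower. Sham labelled WT has medians of -0.10 and -0.21, so the myelin medians overlap between the groups.

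Lists of other neurons were counted beside the striatal list. Of 13 genes of cortical excitatory neurons, 1 was higher with a limma p under 0.05 (*Cux2*, named after its values were seen, log2 difference 0.27 with groups that overlapped slightly), 0 were lower, and the median was 0.097. The summed level of the list was 5732 and 6184 CPM in sham and 4878 to 6548 CPM after BCAS, so neuronal messages were present in every library. *Slc17a7*, the vesicular glutamate transporter and first marker of the list, was 1233 and 1131 CPM in sham and 1024 to 1349 CPM after BCAS (median 1228). Of 10 general neuronal genes, 0 had a limma p under 0.05 (median 0.027), and their first marker, *Snap25*, differed by -0.01. Of 10 interneuron genes, 1 was higher and 1 lower with a limma p under 0.05 (median 0.017). For these neuron lists, the shares over all genes tested were 1.35% higher and 2.39% lower. *Vip*, a neuropeptide of interneurons, was 19.6 and 15.9 CPM in sham and 20.6 to 27.5 CPM after BCAS (median 23.1; log2 difference 0.38, standard error 0.14), and *Slc32a1*, the vesicular GABA transporter, differed by -0.20 with groups that overlapped. *Gad1* differed by 0.02.

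Lists of glial activation differed between the BCAS libraries. In the lists of homeostatic microglia (17 genes tested), disease-associated microglia (20), reactive astrocytes (33), interferon-stimulated genes (14), and MHC class I (9), 0 genes had a limma p under 0.05. Their medians were 0.38, 0.52, 0.20, 0.55, and 0.44. Among all genes tested, 1.35% were higher and 2.39% lower with a limma p under 0.05. *Igf1* of the disease-associated microglia list and *Ptgs2* of the reactive astrocyte list, both named after their values were seen, were higher in all 6 BCAS libraries than in both sham libraries (2.54% over all genes). The list medians were highest on days 7 and 10 labelled WT. For homeostatic microglia, the median relative to sham was 1.31, 0.72, and -0.05 on days 7, 10, and 14 with the label WT, and -0.11, -0.11, and 0.37 with the label TRPA1-KO. The interferon list ran from 1.88 on day 7 labelled WT to -0.16 on day 7 labelled TRPA1-KO. *P2ry12*, the purinergic receptor of resting microglia, was 30.7 and 34.1 CPM in sham and 28.5 to 52.6 CPM after BCAS (median 37.9; log2 difference 0.21), and 3 of the 6 BCAS libraries lay above both sham libraries. Of 18 homeostatic astrocyte genes, 0 had a limma p under 0.05 (median 0.059), and *Aqp4*, the astrocyte water channel, ran from 80.4 to 188 CPM after BCAS around sham values of 109 and 88.3 CPM.

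In the lists of vessel wall cells and fibroblasts, *Col1a2* and *Myh11* met both conditions. *Col1a2*, a chain of type I collagen, was 6.81 and 5.56 CPM in sham and 7.46 to 11.5 CPM after BCAS (median 8.92; log2 difference 0.49, standard error 0.17), and its partner chain *Col1a1* overlapped between the groups (log2 difference 0.19). *Myh11*, the myosin of smooth muscle, was 9.94 and 9.01 CPM in sham and 2.14 to 7.68 CPM after BCAS (median 5.13; log2 difference -0.84, standard error 0.33). *Col1a2* was the 1 called gene of 11 fibroblast genes (median 0.27) and *Myh11* the 1 of 12 pericyte and smooth muscle genes (median 0.041). The shares called over all genes tested were 1.35% higher and 2.39% lower. Of 18 endothelial genes, 0 had a limma p under 0.05 (median 0.069). By overlap alone, 1 fibroblast gene was higher and 1 lower in all 6 BCAS libraries. So were 2 pericyte and smooth muscle genes and 1 endothelial gene, all lower (2.54% higher and 3.76% lower over all genes). *Cldn5*, the tight junction protein of brain endothelium, differed by 0.09 and *Pdgfrb*, the pericyte receptor, by 0.22, both with groups that overlapped.

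Messages of red blood cells varied widely. *Hba-a1*, whose values equal those of its copy *Hba-a2*, was 22.9 and 75.2 CPM in sham and 0.334 to 43.4 CPM after BCAS (median 2.30), so the groups overlapped although its limma p was under 0.05. Over the 4 genes tested of that list, 2 had a limma p under 0.05 (2.39% lower over all genes tested) and the median was -2.51. The 2 were *Hba-a1* and *Hba-a2*, so the same values are counted 2 times, also in the median. Of 3 leukocyte genes tested of 13, *Cd4* was lower (named after its values were seen, log2 difference -0.72 with groups that overlapped), and *Ptprc*, the pan-leukocyte marker, was 4.07 and 3.84 CPM in sham and 2.88 to 19.6 CPM after BCAS. Of 7 ependymal and choroid plexus genes tested, *Clic6*, a chloride channel protein, was lower at 1.13 to 1.92 CPM after BCAS against 2.19 and 3.26 CPM in sham (log2 difference -0.48, standard error 0.21; list median -0.091), while *Foxj1*, the regulator of motile cilia, differed by -0.09. Of 7 neuroblast genes, 0 had a limma p under 0.05 (median -0.13), with *Dcx* at 0.11, and 1 was lower without overlap (3.76% over all genes).

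**Figure D4:**
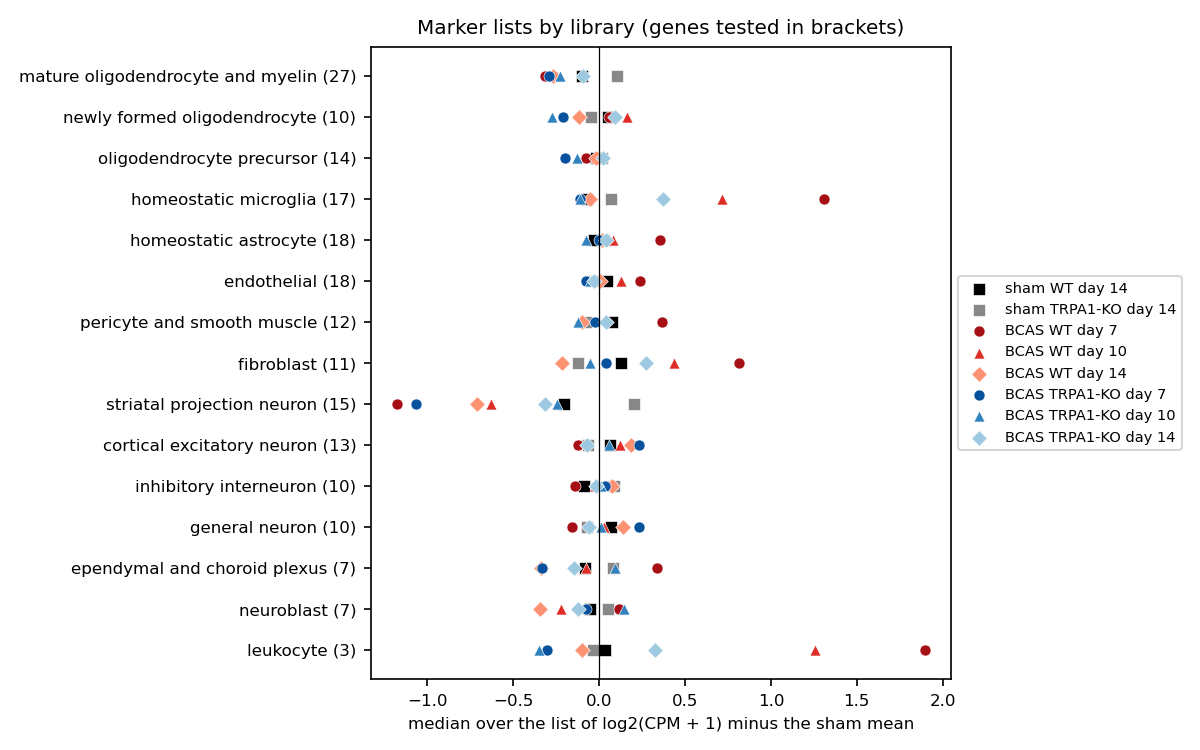
Each row is a list of cell type markers with the number of genes tested, and each point is the median over the list in 1 library of log2(CPM + 1) minus the sham mean (horizontal axis). Red blood cell genes are left out because of their range. The microglia, fibroblast and leukocyte lists spread between BCAS libraries, led by day 7 labelled WT, and the striatal list has all 6 BCAS libraries below both sham libraries.

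Low blood flow limits oxygen, and genes induced by hypoxia-inducible factors were therefore counted. Of 25 such genes, 1 was higher and 1 lower with a limma p under 0.05 (median -0.028). *Pdk1*, a kinase that turns down pyruvate entry into mitochondria, was 59.5 and 59.6 CPM in sham and 63.0 to 78.8 CPM after BCAS (median 67.8; log2 difference 0.20, standard error 0.084). *Ndrg1*, a gene induced by hypoxia that myelinating cells also express, was 188 and 202 CPM in sham and 132 to 179 CPM after BCAS (median 157; log2 difference -0.34, standard error 0.11). Over all genes tested these shares were 1.35% higher and 2.39% lower. A further member, *P4ha1* (named after its values were seen), was lower in all 6 BCAS libraries without a limma p under 0.05, so that 1 member was higher and 2 were lower without overlap.

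Other pathway lists held few called genes. In the lists of cell cycle (14 genes tested), cholesterol synthesis (22), immediate early genes (26), integrated stress response (16), circadian clock (16), antioxidant genes (15), nuclear genes of the respiratory chain (40), and ribosomal proteins (40), 0 genes had a limma p under 0.05, and the medians lay between -0.038 and 0.061. Heat shock and chaperone genes had 1 of 14 lower (*Cryab*, log2 difference -0.26, median of the list -0.0019). Glucocorticoid targets had 2 of 14 lower (*Tsc22d3* and *Klf9*, log2 differences -0.27 and -0.18, median of the list -0.16). Synapse and axon genes had 1 of 25 higher (*Syn2*, log2 difference 0.21, median of the list -0.0083). These 4 genes were named after their values were seen, and their groups overlapped. Over all genes tested, 1.35% were higher and 2.39% lower with such a p. The respiratory chain and ribosomal protein lists each held 1 gene that was higher in all 6 BCAS libraries (2.54% over all genes).

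The remaining lower genes with large differences were low in level. *Gm10754* was 3.68 and 4.22 CPM in sham and 0.445 to 3.31 CPM after BCAS (median 1.26; log2 difference -1.05). *Six3*, a homeobox transcription factor, was 8.84 and 12.8 CPM in sham and 3.56 to 8.74 CPM after BCAS (median 4.22; log2 difference -0.93). *Serpina9*, a protease inhibitor, was 7.04 and 9.88 CPM in sham and 2.78 to 6.83 CPM after BCAS (median 3.45; log2 difference -0.88). In *Six3* and *Serpina9*, days 10 and 14 labelled TRPA1-KO lay just below sham labelled WT and the other 4 BCAS libraries lay far below it, the order also seen in the striatal list. *Gm32810* differed by -0.82.

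Each label has a sham library of its own, so the mean of its 3 BCAS libraries minus that sham gives a pair of differences that share no sample. Across the 15152 genes, these differences had the same sign for 7760 genes (51.2%), with a Pearson r of 0.14 and a Spearman rho of 0.071. Over the 10744 genes whose mean reached 10 CPM, r was 0.19 and rho was 0.066. These values are across genes, which are not independent replicates. For the whole table, the differences of the labels were thus nearly unrelated. Each difference rests on 1 sham library, so a lack of shared change cannot be told apart from noise of single libraries. By the interaction term in limma, 202 genes differed between the labels with a p under 0.05 (1.33%), and 0 after adjustment. Among the 399 shared genes, 0 higher genes and 1 lower gene (*Mog*) had such a p. Choosing these genes makes such a p less likely, since BCAS libraries of both labels had to lie on the same side of sham. The interaction term uses the same values, so this low count is no separate check of agreement between the labels. The design has 1 sham library for each label, and a p above 0.05 does not show that the labels changed alike.

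**Figure D5:**
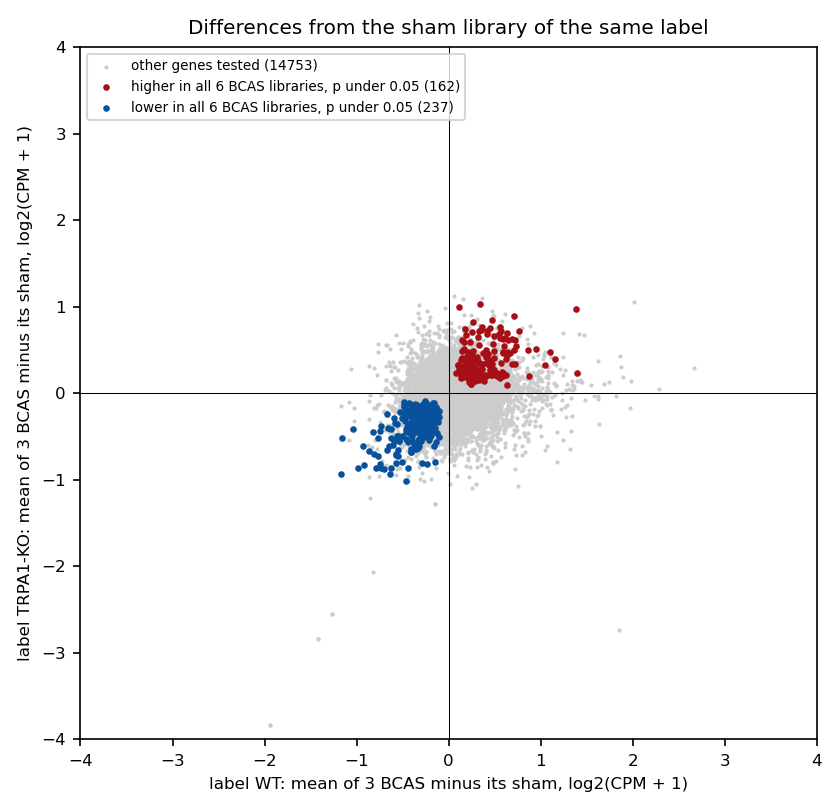
Each point is a gene, with the mean of the 3 BCAS libraries minus the sham library of the same label in log2(CPM + 1), for the label WT (horizontal axis) and the label TRPA1-KO (vertical axis). Grey points are the other genes tested, and colours mark the 162 higher and 237 lower shared genes, which lie in matching quadrants because of how they were chosen. The grey cloud shows little relation between the axes (Pearson r of 0.14 over all 15152 genes).

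The libraries did not contribute equally to the shared genes. The library farthest from sham was day 7 labelled WT for 39.8% of the 399 genes, day 7 labelled TRPA1-KO for 21.8%, day 10 labelled WT for 18.0%, and days 14 labelled WT, 10 labelled TRPA1-KO, and 14 labelled TRPA1-KO for 8.77%, 6.02%, and 5.51%. Among the lower genes the share of day 7 labelled WT was 48.1%, and among the higher genes it was 27.8%. In the day 14 libraries alone, with 2 BCAS against 2 sham libraries of the same day, *Egr2*, an immediate early transcription factor, was the 1 gene with a limma adjusted p under 0.05 (log2 difference -1.38, adjusted p = 0.027). It was not shared: it was 17.7 and 19.5 CPM in sham, 23.4 and 25.3 CPM on days 7 and 10 labelled TRPA1-KO, and 5.83 to 10.1 CPM in the other 4 BCAS libraries.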

How the data were processed

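Polyadenylated RNA from 8 corpus callosum samples was sequenced. Per the labels, HISAT2, featureCounts of Subread, edgeR, and the mm10 build (GRCm38) were used. The gene annotation and strand setting are not given in the sources used here. The deposited signal is the authors' read count per gene normalized with edgeR to CPM, which sums to between 966202 and 1022161 per library. 100% of values came within 0.01 of a whole number of reads after division by what 1 read is worth, which gave 7896071 to 12952093 recovered reads per library. No 2 libraries were alike within sampling noise (smallest chi-square per degree of freedom 3.44 over 28 pairs).

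Differences of log2(CPM + 1) were fitted with limma (version 3.58.1, R 4.3.3) for 6 BCAS against 2 sham libraries and genes averaging 1 CPM or more, by lmFit and a two-sided eBayes test with trend and Benjamini-Hochberg adjustment. The pipeline was tested on simulated data. Alternatives were edgeR version 4.0.16 and DESeq2 version 1.42.0 on recovered reads, a pseudocount of 0.1, a mean of 0.1 CPM or no filter, equal medians, the robust option, the genotype label as a block, day 14 only, and each library left out. In each direction, the 12 genes with the smallest p and the 5 with the largest change were named among those without overlap and with a p under 0.05, with list members that met both conditions, *Trpa1*, and the first gene of each marker list. The comparison and the lists (16 of cell type markers, 17 of pathways) were chosen with earlier results of these data known. Positions come from RefSeq GRCm38.p6, matched for 99.5% of the genes tested. The 13 mitochondrial DNA genes were not analysed here, and not every gene that the rule names is reported here.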

Additional observations from a re-analysis of the deposited data

Results flagged for a closer look

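Of 97 named genes and list medians examined over the 6 BCAS libraries, 10 held a library whose gap to the next, as a share of the range, was above Dixon's 95% critical value for 6 samples, and chance alone gives about 1 in 20. In *Mal*, day 14 labelled WT was the highest (gap share 0.634). In *Sstr1*, day 10 labelled TRPA1-KO was the lowest (0.635), and in *Clic6* it was day 10 labelled WT (0.707). In 7 list medians the library apart was day 7 labelled WT. It was the highest for disease-associated microglia (0.662), homeostatic astrocytes (0.634), reactive astrocytes (0.654), pericytes and smooth muscle (0.667), cell cycle (0.83), and ribosomal proteins (0.66), and the lowest for cholesterol synthesis (0.688).

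For *Snap25* and for the median of the cholesterol synthesis list, all 3 BCAS libraries labelled WT lay on one side of their own sham library and all 3 labelled TRPA1-KO on the other. The difference of the label WT minus that of the label TRPA1-KO was -0.278 for *Snap25* and -0.338 for the list median on the log2 scale. Both rest on the signs, and in each label the day 7 library lay farthest from its own sham. Others lay close to it. *Snap25* on day 14 was 2722 CPM against 2738 CPM in sham for the label WT, and 2403 against 2392 CPM for the label TRPA1-KO. The list median relative to the sham mean was 0.020 on day 10 against 0.034 in sham for the label WT, and -0.020 on day 14 against -0.034 for the label TRPA1-KO. For *Snap25*, limma's interaction with the label had a p above 0.05, and for the list the difference between the labels was not tested.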

How the results depend on the processing

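With the sham library labelled TRPA1-KO left out, 147 genes had a limma p under 0.05 (88 higher, 59 lower), and leaving out any other library gave up to 713 (273 higher, 440 lower). The lone sham library is then assumed to vary like the BCAS group. The count of lower myelin genes ranged from 1 to 17 and that of striatal genes from 0 to 14, with list medians from -0.31 to -0.14 and from -0.91 to -0.50. The number of genes without overlap ranged from 1227 to 3788 when a library was left out, since fewer libraries have to be ordered. On day 14 alone it was 4725, with 5 lower myelin genes and 1 gene with an adjusted p under 0.05. DESeq2 gave 6 such genes, and limma gave 0 with any library left out. With a replicate block for the genotype label, the count was 562, and 0 after adjustment, and days are shared between labels but have no sham of their own, so no pairing by day was fitted. Without a filter the count was 780, and other settings gave 494 to 640. Of 52 named genes that met both conditions, between 42 and 52 kept a p under 0.05 under each alternative other than leaving out the sham library labelled TRPA1-KO, where 22 did, and 0 changed direction. The cause of these changes was not tested. Both sham libraries come from day 14, and each operation, label, and day has 1 library, so the spread within BCAS holds days, labels, and animals together.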
